A study of Mus musculus with 12 samples.

Results

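The comparison described here set muscle of wild-type mice on a high fat diet (HFD) against muscle of wild-type mice on a normal diet (ND). It used 6 of the 12 expression arrays of the series, 3 per diet, and every annotated gene with a usable probe set, 11345 genes in all. The mice were 16 weeks old and of a mixed 129/Sv and C57BL/6 background, and each array carried RNA of 1 animal. The other 6 arrays came from mice that lack GPR120 (Ffar4), a receptor for long-chain fatty acids, 3 on ND and 3 on HFD, and they serve below as a check on whether a diet difference was shared by both genotypes. The muscle that was taken, the sex of the animals, the litters and the length of the diet were not given in the sources used here, so diet and cohort cannot be told apart. The Y-linked Eif2s3y read 8.48 to 9.23 over the 12 arrays.

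Skeletal muscle burns both glucose and fatty acids, and it moves towards fatty acids when dietary fat rises or when an animal fasts. Fasting, glucocorticoids and low insulin activate FoxO transcription factors in muscle fibres, which raise genes of autophagy, protein breakdown and growth arrest, and feeding reverses this. Load and injury act on a different set of genes, those of the Z-disc, the chaperones that guard it and the early-response transcription factors. A diet comparison in whole muscle reads all of these programmes at once, together with vessels, nerve and connective tissue, and fewer cells of a type cannot be told apart from less RNA per cell.

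Values are log2 signals of 1 probe set per gene, and a difference is the HFD mean minus the ND mean with its standard error (SE) from a single limma model over the 12 arrays. A gene was called at a Benjamini-Hochberg adjusted p of at most 0.05 over the 11345 genes. All 15 fibre markers passed the filter on low signals, 1 of them was called (Tnnc1, higher), and their summed linear signal ran from 128649 to 132957 on ND and from 137167 to 155918 on HFD, ranges that did not meet. A measure of RNA quality also differed between the diets. The 3' to 5' log2 ratio of the actin control probe sets was 0.091, 0.418 and 0.143 on ND and 0.593, 0.638 and 0.578 on HFD (exact two-sided permutation p = 0.10, the smallest that 3 against 3 can give), whereas that of Gapdh averaged -0.258 ± 0.019 on ND and -0.252 ± 0.017 on HFD (SD, n = 3 each; exact permutation p = 0.70). With the mean 3' to 5' ratio as a covariate 168 of the called genes kept their call, among them 112 of the 159 genes that held when any 1 wild-type array was left out; which of the other differences go with RNA quality was not tested.

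On HFD 348 genes rose (3.07% of those tested) and 339 fell (2.99%), 687 in all (6.06%). The median size of a called difference was 0.76 on the log2 scale, 225 called genes differed at least 2-fold (79 higher, 146 lower), and 46 at least 4-fold, 7 of them higher and 39 lower. Over all tested genes the 3 values of one diet lay entirely above the 3 of the other in 26.7%, and the median difference was 0.04. The calls leaned on single arrays: leaving out 1 wild-type array at a time gave between 199 calls (without ND replicate 2) and 918 (without ND replicate 1), 256 without ND replicate 3, 303 without HFD replicate 2 and 383 without HFD replicate 1. A total of 159 genes (1.4%) were called in all 6 of these fits, 74 higher and 85 lower. These 159 are termed stable calls; for the other called genes described, the text gives the number of the 6 fits that kept the call, or the highest adjusted p over those fits with the array left out, or both. Of the stable calls described, Acot1, Aldh5a1, Atf4, Dnajb1, Fas, Fbxo32, Itga4, Mgll, Sat1, Slc25a20, Slc39a14, Tubb4b and Zfp36 lost their call with the 3' to 5' covariate (adjusted p from 0.0522 for Fas to 0.179 for Mgll). In 9 called genes (6 higher, 3 lower) all 3 arrays of 1 wild-type group lay at or under the filter on low signals, a log2 signal of 3.78, so the size of the difference is not a measured one.

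**Figure D1:**
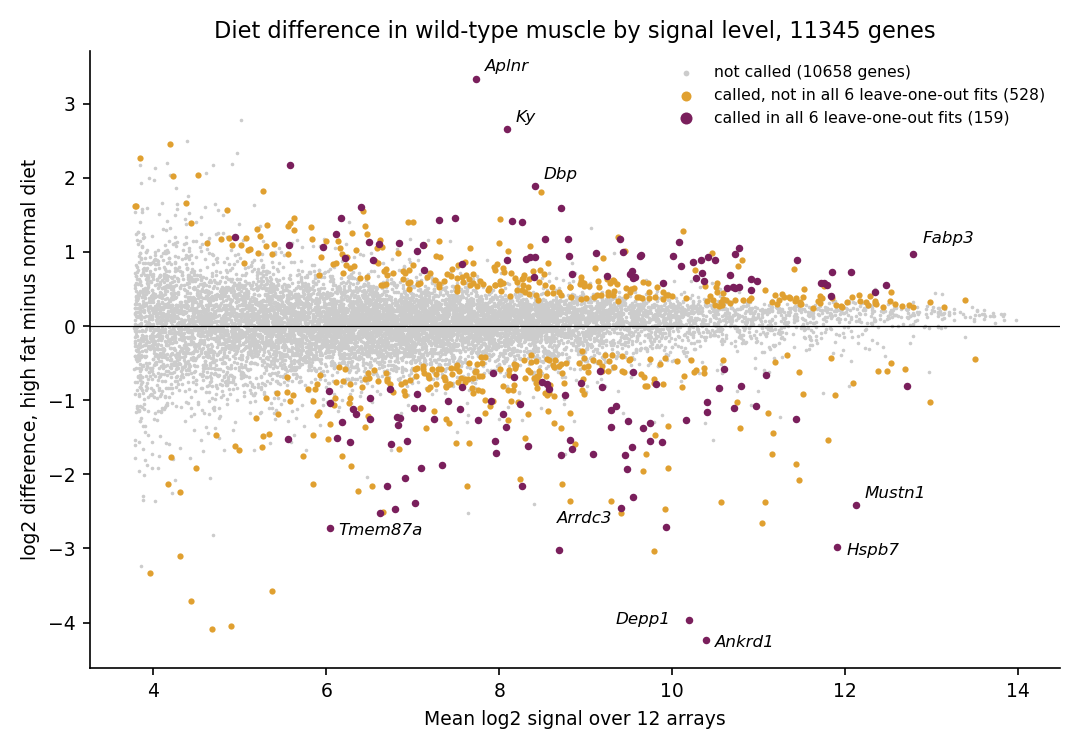
Diet difference in wild-type muscle for the 11345 tested genes: the x axis is the mean log2 signal over the 12 arrays and the y axis the log2 difference, HFD minus ND. Grey points were not called, orange points (528) were called but not in all 6 leave-one-out fits, and purple points (159) were called in all 6; 39 of the 46 called differences of at least 4-fold lie below 0.

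Some of the largest stable differences were in single genes of different functions. Aplnr, the receptor for the peptide apelin, gave log2 signals of 6.02, 5.41 and 5.08 on ND and 8.72, 9.66 and 8.15 on HFD. The lowest HFD array lay about 2 log2 units above the highest ND array, and the mean rose 10.1-fold (difference 3.34 ± 0.31 SE, adjusted p = 9.27e-05). Another probe set of Aplnr differed by 1.53, so the size of the rise depends on the probe set. Ky, a muscle protein of the Z-disc whose loss causes kyphoscoliosis in mice, read 6.62, 6.26 and 6.85 on ND and 9.25, 9.05 and 9.42 on HFD, a 6.31-fold rise (adjusted p = 8.04e-05) with every HFD array above every ND array. At the other end stood Ankrd1, a stretch-responsive ankyrin repeat protein of the I-band, which read 10.86, 11.48 and 12.37 on ND and 6.38, 9.50 and 6.12 on HFD. Its mean fell by 4.23 ± 0.78 on the log2 scale (adjusted p = 0.00865). HFD replicate 2 stayed closer to the ND arrays than the other two did, yet did not reach them. Depp1, a FoxO target that acts on autophagy and peroxisomes, read 12.15, 12.63 and 12.47 on ND and 8.63, 7.72 and 8.99 on HFD and fell 15.7-fold (adjusted p = 0.001), again without overlap. Tmem87a, a Golgi membrane protein, had narrow groups: 8.25, 8.31 and 8.21 on ND against 5.86, 5.36 and 5.39 on HFD, a fall of 2.72 ± 0.20 (adjusted p = 2.23e-05).

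**Figure D2:**
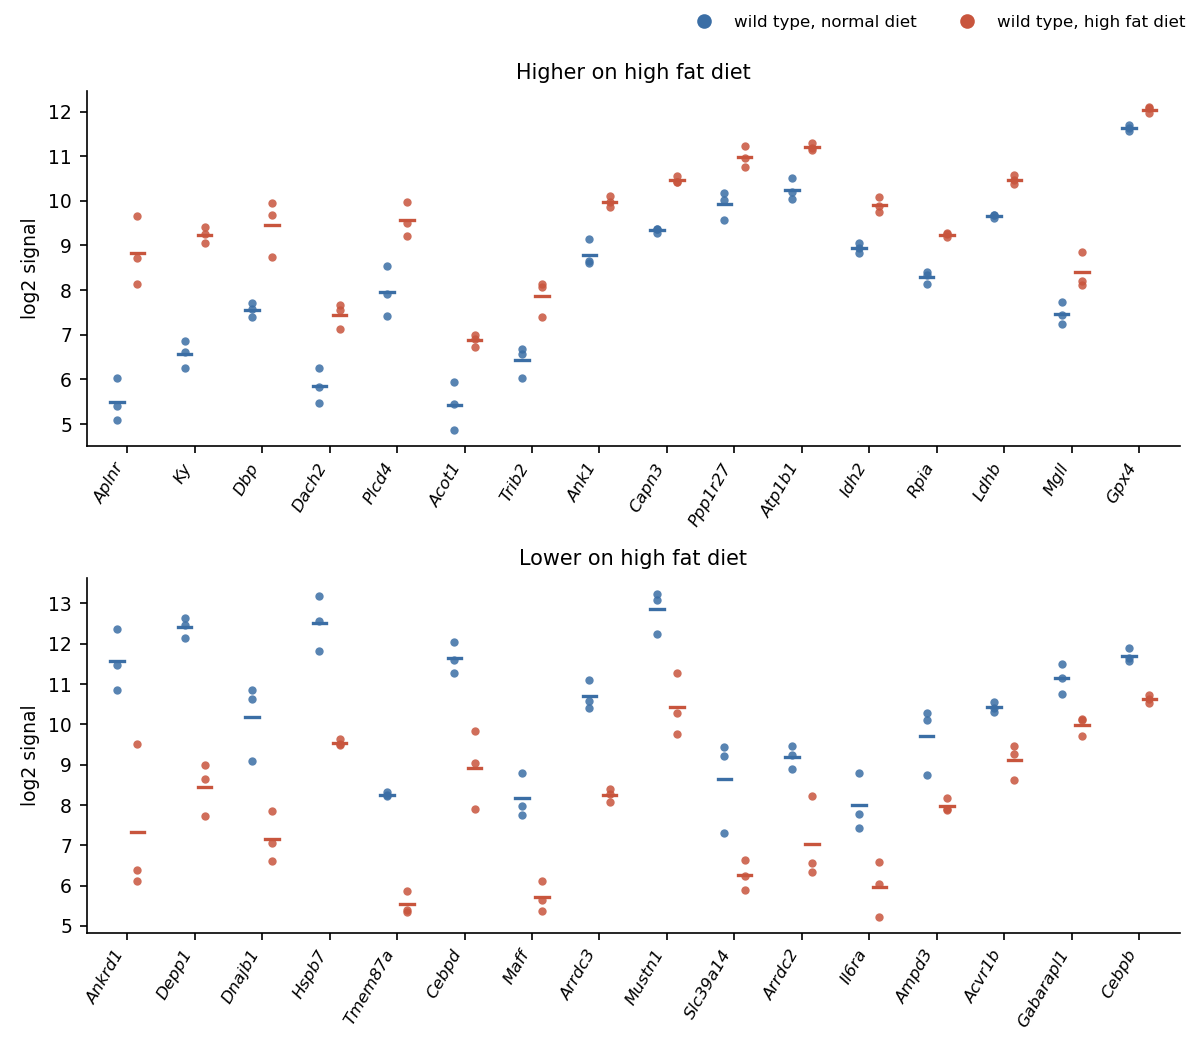
Log2 signal of 16 genes that rose (top) and 16 that fell (bottom) on HFD in wild-type muscle; each point is 1 array and each bar a group mean (n = 3). For every gene shown the 3 HFD arrays lie on one side of the 3 ND arrays, and all 32 were called in each leave-one-out fit.

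Growth arrest and p53 response genes were called more often downwards than upwards. Their list, like the others, was chosen with earlier results of these data known, so its counts and share are a description. The list held 29 tested genes, of which 10 fell, 1 rose and 18 were not called; 37.9% were called against 6.06% of all tested genes, and the median difference was -0.61 against 0.04. Btg2, an antiproliferative protein that also recruits the deadenylase to mRNAs, read 10.58, 11.02 and 10.59 on ND and 7.97, 8.38 and 8.91 on HFD and fell 4.94-fold (adjusted p = 0.00124). Gadd45a, which slows the cell cycle and rises in denervated and fasted muscle, went from 10.29, 10.28 and 10.92 on ND to 8.57, 8.81 and 8.87 on HFD, a 3.34-fold fall (adjusted p = 0.00119), and the HFD arrays were close together. The other stable members were Trp53inp1, a stress protein that promotes autophagy and cell death (fall of 1.54, adjusted p = 0.00785), and Fas, the death receptor (fall of 1.29, adjusted p = 0.0107).

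Less firmly measured were Ddit4 (REDD1), which restrains mTORC1, and the sestrin Sesn1, which does the same through amino acid sensing. Ddit4 read 11.31, 11.71 and 11.31 on ND and 9.001, 6.74 and 9.47 on HFD, where replicate 2 lay more than 2 log2 units under the other two; it fell 8.23-fold, and its call was kept in 5 of the 6 fits (adjusted p = 0.0125, 0.0572 without ND replicate 2). Sesn1 fell by 1.95 (adjusted p = 0.0109, 0.0572 without ND replicate 2). Cdkn1a, the cyclin-dependent kinase inhibitor p21, fell by 2.13, but it read 9.16, 10.67 and 9.16 on ND and 7.12, 6.70 and 8.79 on HFD and its call was kept in 2 of the fits (adjusted p = 0.0285, 0.124 without ND replicate 2). Gadd45g, Ier5 and Eda2r also fell, by 1.72, 1.51 and 0.72, and their calls were kept in 1, 5 and 2 of the fits; the one that rose was Rrm2b, a ribonucleotide reductase subunit, by 0.53 (1 of the fits; adjusted p = 0.123 without ND replicate 2). The number of list members called ran from 4 (without ND replicate 2) to 12 over the leave-one-out fits, and was 3 with the 3' to 5' covariate. In mice without GPR120 7 of the 29 fell on HFD, at a background of 4.54% of all genes called in that contrast.

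The alpha-arrestins are adaptors that bring ubiquitin ligases to membrane proteins, and Arrdc3 and Arrdc2 were both lower. Arrdc3 read 10.41, 11.11 and 10.58 on ND and 8.28, 8.06 and 8.40 on HFD, a 5.46-fold fall (adjusted p = 2.23e-05). Its groups were separated by about 2 log2 units and no single array carried the difference. Arrdc2 read 9.25, 9.45 and 8.89 on ND and 6.56, 6.35 and 8.22 on HFD, where HFD replicate 3 lay nearer to the ND arrays than the other HFD arrays; it fell 4.45-fold (adjusted p = 0.00478). The other 3 tested members of this list of 5 were not called (40% called against 6.06% of all genes).

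**Figure D3:**
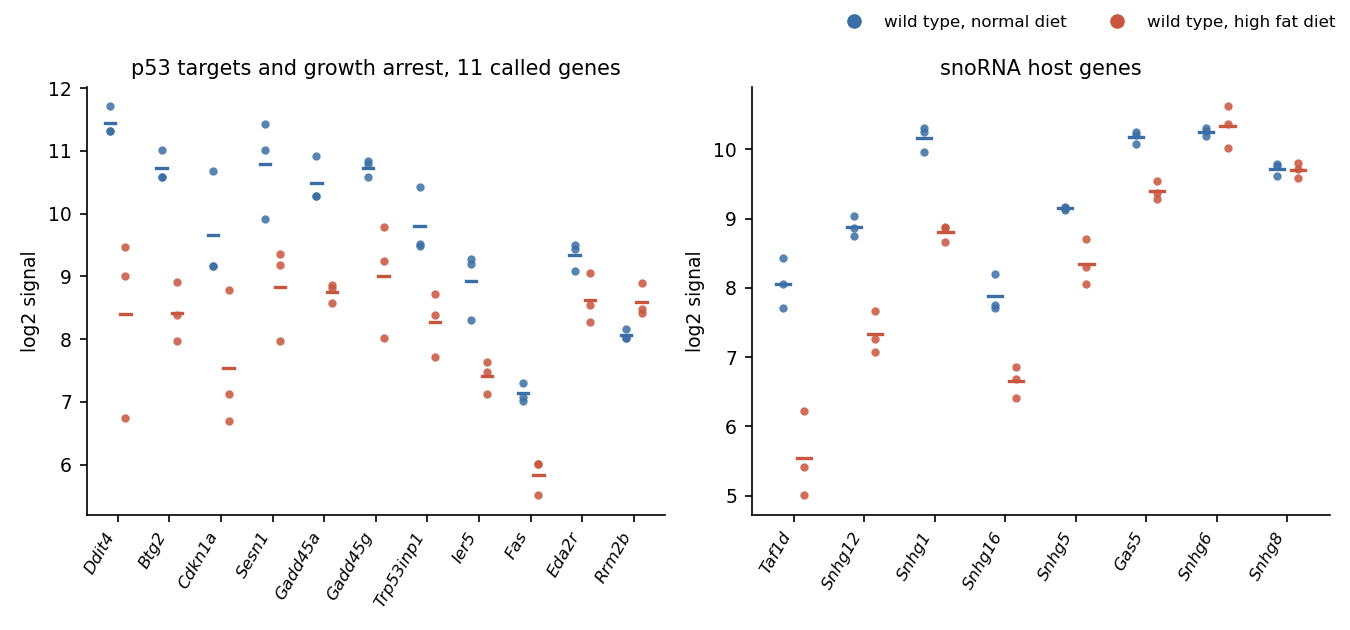
Left, log2 signal of the 11 called genes of the p53 and growth arrest list in wild-type muscle; right, 8 snoRNA host genes, of which Snhg6 and Snhg8 were not called. Points are arrays and bars are means (n = 3 per diet); Rrm2b alone of the 11 is higher on HFD, and Taf1d to Gas5 lie lower on HFD with no overlap.

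A second group with several falls was a set of hosts of small nucleolar RNAs (snoRNAs), transcripts whose introns carry the guides of ribosomal RNA modification. This group was picked after the values were seen, by symbol (Snhg genes, Gas5 and Taf1d), so its count is a description. Of 15 tested hosts 6 fell, none rose and 9 were not called, where 2.99% of all tested genes fell and 3.07% rose. The median was -0.58 against 0.04 over all genes, and 11 of the 15 differences were negative. Snhg1 read 9.96, 10.31 and 10.25 on ND and 8.87, 8.67 and 8.88 on HFD, a 2.58-fold fall (adjusted p = 0.000495), with narrow groups and other probe sets from -1.54 to 0.24. Gas5, a growth-arrest transcript, went from 10.08, 10.20 and 10.25 on ND to 9.29, 9.37 and 9.54 on HFD (fall of 0.78 ± 0.11, adjusted p = 0.00191). Taf1d, which also encodes a subunit of the RNA polymerase I factor SL1, read 7.71, 8.43 and 8.05 on ND and 5.42, 5.002 and 6.22 on HFD and fell 5.72-fold (adjusted p = 0.000237); its 4 other probe sets differed by -1.15 to -0.26. Snhg12 fell by 1.55 (adjusted p = 0.0018) and Snhg16 fell by 1.23 (adjusted p = 0.00131). Snhg5 fell by 0.80 (adjusted p = 0.0488) but kept its call in 1 of the 6 fits. Snhg6 and Snhg8 differed by 0.08 and -0.02. In the mice without GPR120 7 of the 15 fell on HFD, at a background of 4.54% of all genes called in that contrast. A total of 5 hosts (Gas5, Snhg1, Snhg12, Snhg16 and Taf1d) fell in both genotypes.

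Ribosomal proteins gave another picture. Of 75 listed cytosolic ribosomal protein genes 42 had a probe set with 1 gene symbol and 41 were tested, so the set is partial. None of these 41 was called by limma (median 0.12 against 0.04 over all genes, 35 positive), although 10 of them had an unadjusted p under 0.05 and at most 1 of them was called in a leave-one-out fit. The 2 largest differences were Rps27, 7.47, 6.63 and 5.25 on ND against 5.41, 4.70 and 5.24 on HFD (adjusted p = 0.163), and Rps6, 6.85, 7.19 and 7.28 on ND against 7.80, 7.79 and 7.49 on HFD (adjusted p = 0.0662). Of 36 genes of ribosome assembly and translation initiation 3 fell and none rose, 8.33% called against 6.06% of all genes, a share close to that background. Each of the 3 was called in at most 3 of the 6 fits and none without ND replicate 2: Rrs1, an assembly factor of the large subunit (fall of 0.86, adjusted p = 0.0185, 0.0868 without ND replicate 2), Eif4ebp1, the eIF4E repressor under mTORC1 (fall of 0.61, adjusted p = 0.0196, 0.097 without ND replicate 2) and the helicase Eif4a1 (fall of 0.46, adjusted p = 0.0464, 0.176 without ND replicate 3). Mitochondrial ribosomal proteins gave rises only. Of 72 tested, 5 rose and none fell, 6.94% against 6.06% of all genes, a share close to that background, with a median of 0.17 (0.04 over all genes) and 61 positive differences. Mrps15 carried the one stable call, 10.15, 9.74 and 9.74 on ND against 10.75, 10.73 and 10.94 on HFD (1.9-fold, adjusted p = 0.00238), while another probe set of it differed by 0.22; Mrps10, Mrps16, Mrps21 and Mrpl23 rose by 0.51, 0.38, 0.35 and 0.31, with calls kept in 2, 1, 1 and 1 of the fits, and none of these 4 without ND replicate 2. No member of the list was called in the mice without GPR120, where 4.54% of all genes were.

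Several chaperones and load-responsive proteins of the fibre fell. Hspb7, a small heat shock protein of muscle that binds filamin C, read 11.83, 12.56 and 13.17 on ND and 9.63, 9.51 and 9.48 on HFD. The 3 HFD arrays were almost equal, the ND arrays were spread more widely, and the mean fell 7.91-fold (adjusted p = 5.84e-05). Mustn1, a small nuclear protein of regenerating and loaded muscle, read 12.25, 13.08 and 13.23 on ND and 9.76, 11.28 and 10.28 on HFD, a 5.33-fold fall (adjusted p = 0.00658). Dnajb1, the Hsp40 partner of Hsp70, went from 9.10, 10.63 and 10.85 on ND to 6.61, 7.05 and 7.85 on HFD and fell 8.14-fold (adjusted p = 0.00845). The Hsp70 genes Hspa1a and Hspa1b fell, with differences of -2.38 and -2.08 (adjusted p = 0.0108 and 0.0198); they are near-identical copies whose probe sets cannot be told apart with certainty, and their calls were kept in 5 and 4 of the fits (adjusted p = 0.0576 without ND replicate 2, and 0.0819 without ND replicate 3).

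Among 51 tested genes of the sarcomere scaffold, Z-disc and costamere, 3 rose and 4 fell (13.7% called against 6.06% of all genes). Besides Ky, Capn3 rose, the muscle calpain whose loss causes a limb-girdle dystrophy: 9.37, 9.28 and 9.37 on ND against 10.56, 10.43 and 10.42 on HFD (2.19-fold, adjusted p = 2.45e-05). Both groups were narrow and far apart. Tmod4, the skeletal tropomodulin that caps thin filaments, rose by 0.46 ± 0.08 (adjusted p = 0.00694). Below Ankrd1 on the falling side came Xirp1 (Xin), an actin-bundling repair protein, with 11.11, 12.01 and 12.24 on ND and 9.71, 10.96 and 9.52 on HFD; its call (adjusted p = 0.0392) was kept in 2 of the fits (adjusted p = 0.14 without ND replicate 3). Pdlim3 and the chaperone Cryab fell by 0.61 and 0.45 and were kept in 1 and 2 (adjusted p = 0.178 without ND replicate 3, and 0.0841 without ND replicate 3). Klhl40, which stabilises nebulin and leiomodin, read 11.46, 12.26 and 12.57 on ND and 9.74, 11.06 and 9.91 on HFD and fell by 1.86 (adjusted p = 0.0255, 0.101 without ND replicate 3).

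Calls among genes of protein breakdown were mostly falls. In the autophagy and lysosome list of 38 tested genes 3 fell and 1 rose, 10.5% called against 6.06% of all genes. Gabarapl1, an Atg8 protein of the autophagosome membrane, read 10.76, 11.50 and 11.16 on ND and 9.71, 10.14 and 10.10 on HFD, a 2.22-fold fall (adjusted p = 0.00468), and a second probe set differed by -1.44. Zfyve1 (DFCP1), which marks the membrane where autophagosomes form, fell by 1.01 ± 0.16 (adjusted p = 0.00467), and Depp1 is given above. All 3 of these calls were stable and all 3 were also lower on HFD without GPR120, where 4.54% of all genes were called. Ulk2, an autophagy-initiating kinase, rose by 0.37 in 1 of the fits only (adjusted p = 0.17 without ND replicate 3). Of 30 ubiquitin ligases and deubiquitinases 5 fell and none rose, 16.7% against 6.06%, and none of these calls was stable: beside Klhl40 these were Usp28, Ube4a, Fbxo30 (MUSA1, a ligase of denervation atrophy) and Ube4b, with falls of 1.17, 0.81, 0.76 and 0.59 and calls kept in 4, 3, 3 and 2 of the fits. Without ND replicate 2 only 1 of the list was called, and with the 3' to 5' covariate none was. The ligases of muscle atrophy, Trim63 (MuRF1) and Fbxo32 (atrogin-1), are not in this list and were added after their values were seen; both falls were stable. Trim63 read 13.11, 13.15 and 13.24 on ND and 12.24, 12.30 and 12.56 on HFD (1.74-fold lower, adjusted p = 0.00124). Fbxo32 read 12.34, 12.21 and 11.94 on ND and 10.52, 10.59 and 11.64 on HFD, where replicate 3 lay nearest to the ND arrays without reaching them (2.38-fold lower, adjusted p = 0.0109). The proteasome list had 3 falls among 41 subunits (7.32% against 6.06%), a share close to that background. These were subunits of the 19S cap: Psmd11 by 0.43 (kept in 5 of the fits, adjusted p = 0.0563 without ND replicate 3), Psmd8 by 0.48 (adjusted p = 0.107 without ND replicate 2) and Psmd7 by 0.56 (adjusted p = 0.1 without ND replicate 3). None of these calls was stable, with the 3' to 5' covariate none of the list was called, and the list median was -0.04.

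**Figure D4:**
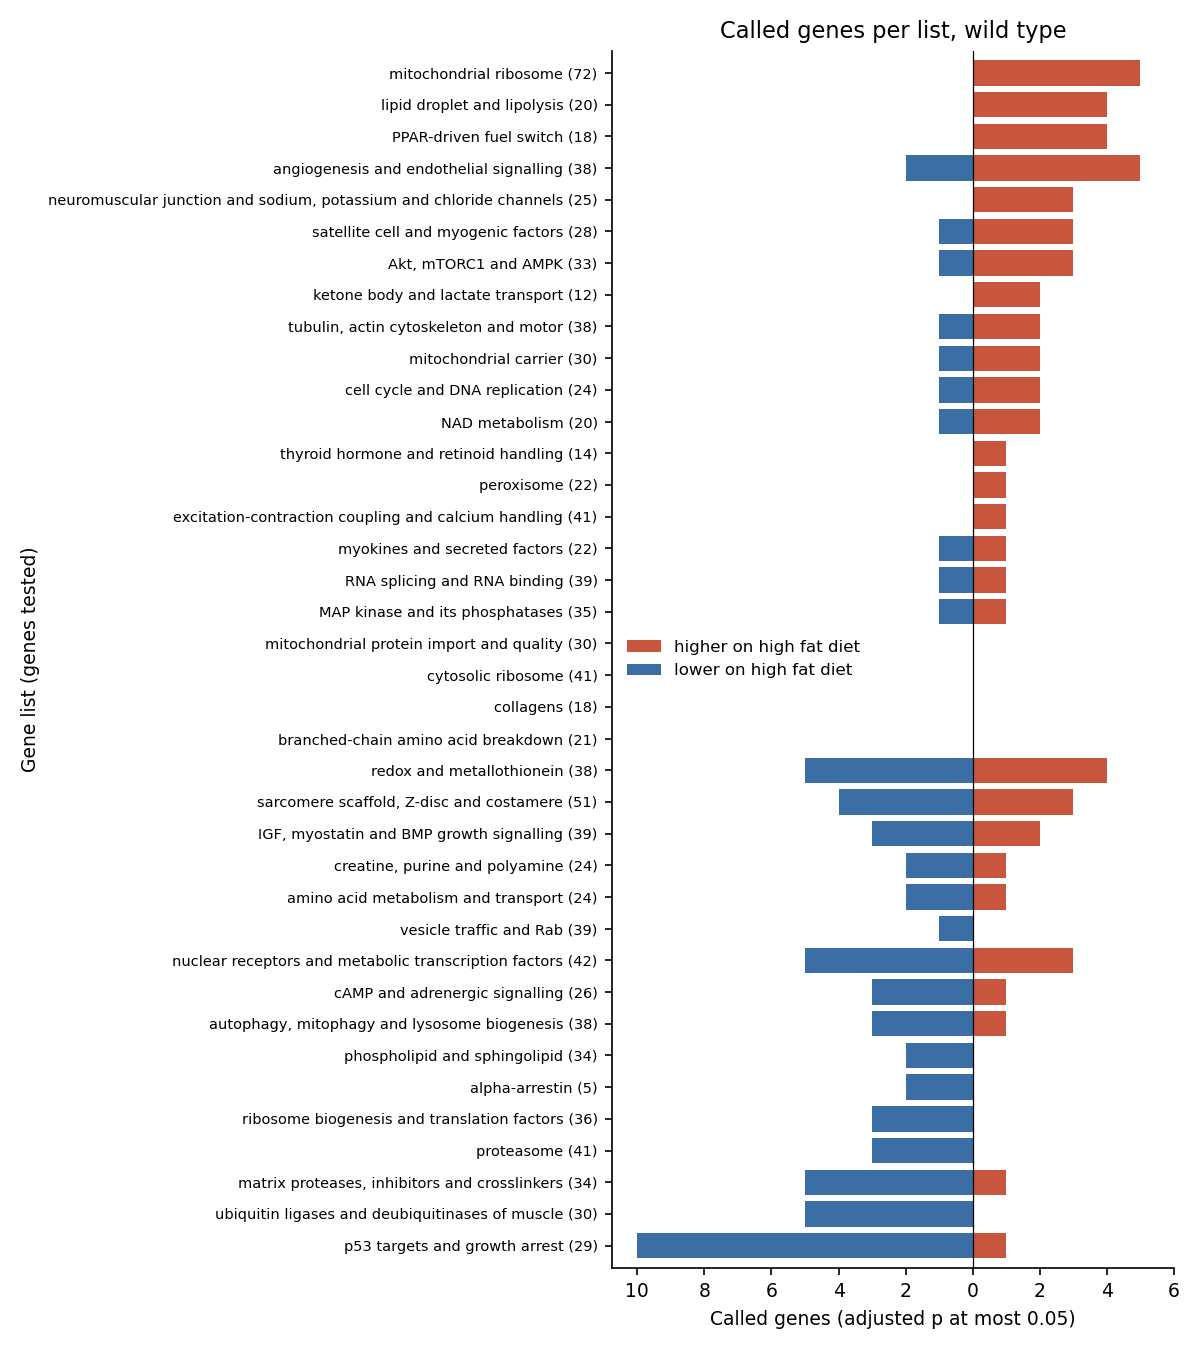
Number of called genes in each of the 38 pathway lists in wild-type muscle, higher on HFD to the right and lower to the left, with the number of tested genes in brackets. The p53 and growth arrest list has the most falls (10 of 29) and the mitochondrial ribosome and angiogenesis lists the most rises (5 of 72 and 5 of 38). Bars are counts and are not scaled to list size. In either direction 37.9%, 6.94% and 18.4% of these lists were called, against 6.06% of all tested genes. The mitochondrial ribosome share is thus close to that background. The lists were chosen with earlier results of these data known, so the counts and shares are a description.

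Several genes of fuel handling outside the oxidation spiral rose. In the PPAR list 4 of 18 genes rose and none fell, 22.2% called against 6.06% of all genes (median 0.31); 2 were called without ND replicate 2, and 2 with the 3' to 5' covariate. Acot1, a cytosolic thioesterase that frees fatty acids from CoA, read 4.87, 5.45 and 5.95 on ND and 6.99, 6.73 and 6.91 on HFD and rose 2.74-fold (adjusted p = 0.011); the ND arrays spread over more than 1 log2 unit and stayed below the HFD arrays. Pdp1, the phosphatase that switches pyruvate dehydrogenase on, read 8.02, 7.61 and 7.83 on ND and 9.06, 8.58 and 8.55 on HFD, 1.88-fold (adjusted p = 0.00845). Ppargc1a, the coactivator of mitochondrial biogenesis, rose by 0.87 and Cd36, the fatty acid translocase, by 0.57, kept in 2 and 3 of the fits (adjusted p = 0.138 without ND replicate 2, and 0.0841 without ND replicate 3). In lactate and ketone handling 2 genes were called, both stable, among the 12 of that list (16.7% against 6.06% of all genes). Ldhb, the lactate dehydrogenase subunit of oxidative fibres and heart, read 9.67, 9.69 and 9.63 on ND and 10.38, 10.57 and 10.47 on HFD (1.75-fold, adjusted p = 0.000996), with its 3 other probe sets at 0.80 or more. Acat1, the mitochondrial acetoacetyl-CoA thiolase, rose by 0.49 ± 0.09 (adjusted p = 0.00845).

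At the lipid droplet 4 of 20 genes rose and none fell (20% called against 6.06% of all genes), and with the 3' to 5' covariate none was called. Mgll, the monoacylglycerol lipase that finishes triglyceride breakdown, was the one called in all leave-one-out fits: 7.24, 7.73 and 7.44 on ND and 8.12, 8.86 and 8.20 on HFD (1.9-fold, adjusted p = 0.0125), with HFD replicate 2 the highest. G0s2, which inhibits the lipase ATGL, read 7.18, 7.11 and 6.59 on ND and 7.60, 8.16 and 7.66 on HFD and rose by 0.84 (adjusted p = 0.0365, 0.141 without ND replicate 3). Cidea, a droplet-fusion protein best known from brown fat, rose by 1.34 from a low signal (adjusted p = 0.03, 0.104 without ND replicate 3), and Fitm1, which partitions triglyceride into droplets, by 0.36 (adjusted p = 0.168 without ND replicate 3). In the peroxisome list 1 of 22 was called (4.55% against 6.06% of all genes), Pex11a, which drives peroxisome division (1.64-fold higher, adjusted p = 0.0157, kept in 4 of the fits, 0.0663 without ND replicate 2). Fabp3, the fatty acid carrier of muscle cytosol, had narrow groups at 12.09, 12.07 and 12.25 on ND and 13.07, 13.24 and 13.01 on HFD (1.96-fold, adjusted p = 0.00022), while another probe set differed by 0.14.

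Carbon flow around the citrate cycle and pentose phosphates showed 2 further stable rises. Idh2, the NADP-dependent mitochondrial isocitrate dehydrogenase, read 8.84, 8.94 and 9.06 on ND and 9.74, 9.87 and 10.09 on HFD, 1.94-fold (adjusted p = 0.000323). Rpia, the ribose 5-phosphate isomerase, read 8.41, 8.14 and 8.34 on ND and 9.27, 9.20 and 9.26 on HFD, 1.92-fold (adjusted p = 0.000798); neither pair of groups overlapped. Of 30 mitochondrial carriers 2 rose and 1 fell (10% called against 6.06% of all genes). The carnitine-acylcarnitine carrier Slc25a20 rose by 0.51 ± 0.09 (adjusted p = 0.00579), a stable call, and Slc25a39, the glutathione importer, by 0.53 (adjusted p = 0.139 without ND replicate 3). Slc25a33, a pyrimidine nucleotide carrier, fell by 1.17 (kept in 4 of the fits, adjusted p = 0.0688 without ND replicate 2). In NAD metabolism Nmrk2, the muscle nicotinamide riboside kinase, read 8.05, 6.89 and 7.51 on ND and 9.38, 9.16 and 9.37 on HFD. The rise was 3.52-fold and did not overlap, but the call (adjusted p = 0.0231) was kept in 1 of the fits (adjusted p = 0.108 without ND replicate 2). Nmnat1 rose by 0.59 (adjusted p = 0.118 without ND replicate 3) and the deacetylase Sirt1 fell by 0.58 (adjusted p = 0.152 without ND replicate 3), which made 3 called of 20 (15% against 6.06% of all genes).

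In nucleotide and polyamine turnover 2 genes fell and 1 rose (12.5% called against 6.06% of all genes). Ampd3, the AMP deaminase isoform that rises in wasting muscle, read 8.75, 10.10 and 10.28 on ND and 7.90, 8.19 and 7.88 on HFD, a 3.3-fold fall (adjusted p = 0.00845). Sat1, which acetylates spermidine and spermine for export, fell by 0.85 ± 0.15 (adjusted p = 0.00809), while Oaz2, an ornithine decarboxylase antizyme, rose by 0.46 (adjusted p = 0.0687 without ND replicate 2); the remaining 21 of 24 were not called. Branched-chain amino acid breakdown had none of 21 called by limma (median 0.14; 5 at an unadjusted p under 0.05, at most 1 called in any leave-one-out fit); its 2 largest differences were Auh, 0.47 (adjusted p = 0.0932), and Mcee, 0.37 (adjusted p = 0.0595). In amino acid metabolism at large 1 of 24 tested genes rose and 2 fell (12.5% called against 6.06% of all genes). Slc7a2, a cationic amino acid transporter, and the glutamine synthetase Glul fell by 0.83 and 0.77 (adjusted p = 0.157 without ND replicate 2, and 0.173 without ND replicate 2), and the aspartate aminotransferase Got2 rose by 0.32 (adjusted p = 0.148 without ND replicate 3). The other probe sets of Got2 differed by -0.15 and -0.56. Mitochondrial import and quality control had none of 30 called (12 at an unadjusted p under 0.05, at most 2 called when 1 array was left out), with Timm8a1 at 0.56 (adjusted p = 0.0732) and Clpx at -0.53 (adjusted p = 0.0612).

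Redox genes moved both ways. Of 38 tested, 4 rose and 5 fell (23.7% called against 6.06% of all genes). In the fit without ND replicate 2 the list had 2 calls, and with the 3' to 5' covariate also 2. Gpx4, the peroxidase that reduces lipid hydroperoxides in membranes, read 11.69, 11.56 and 11.64 on ND and 11.96, 12.07 and 12.09 on HFD (rise of 0.41, adjusted p = 0.00601), a small difference with very narrow groups. Prdx2, a thiol peroxidase, rose by 0.61 (adjusted p = 0.00163) on the brighter probe set, but another one differed by -1.59, so its direction depends on the probe set. Sod2 and Gstt1 rose by 0.39 and 0.82, kept in 1 and 2 of the fits (adjusted p = 0.161 without ND replicate 2, and 0.185 without ND replicate 2); the Gstt1 groups overlapped. The metallothioneins, zinc-binding proteins that glucocorticoids and metals raise, fell: Mt1 read 11.18, 12.43 and 13.12 on ND and 9.91, 10.04 and 9.67 on HFD and Mt2 read 10.87, 12.38 and 13.13 on ND and 10.30, 9.47 and 8.63 on HFD. ND replicate 1 was the lowest of its group for both. Mt1 fell 5.18-fold (adjusted p = 0.0125, kept in 4 of the fits, 0.0572 without ND replicate 2) and Mt2 6.32-fold (adjusted p = 0.0152, kept in 3, 0.0673 without ND replicate 2); with the 3' to 5' covariate neither was called (adjusted p = 0.167 and 0.177). Hmox1, heme oxygenase 1, and the 2 subunits of glutamate-cysteine ligase, Gclc and Gclm, fell by 1.62, 0.65 and 0.66, each kept in at most 2 of the fits.

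Calls in the channel list and the calcium handling list were all rises. Atp1b1, the beta subunit of the sodium pump, read 10.19, 10.04 and 10.50 on ND and 11.14, 11.30 and 11.18 on HFD, 1.95-fold higher (adjusted p = 0.0012), and 3 further probe sets gave 0.62 to 1.08. Fxyd6, a pump regulator, rose by 0.68 (kept in 5, adjusted p = 0.0642 without ND replicate 2) and Scn4b, a sodium channel beta subunit, by 0.54 (adjusted p = 0.0833 without ND replicate 2). With Atp1b1 these were the only called genes among 25 of the junction and channel list (12% against 6.06% of all genes). Ank1, whose small muscle isoform ties the sarcoplasmic reticulum to the myofibril, read 9.14, 8.60 and 8.64 on ND and 9.86, 9.97 and 10.11 on HFD, 2.27-fold higher (adjusted p = 0.000598). Plcd4, a phospholipase C, read 8.54, 7.43 and 7.92 on ND and 9.97, 9.51 and 9.21 on HFD (3.02-fold, adjusted p = 0.00443), with the ND arrays spread over more than 1 log2 unit. Ppp1r27, a regulatory subunit of protein phosphatase 1, rose 2.07-fold (adjusted p = 0.00242). Among 41 genes of excitation-contraction coupling 36 differences were positive (median 0.21 against 0.04 over all genes), but 1 was called (2.44% against 6.06%), the dihydropyridine receptor Cacna1s, by 0.40 (adjusted p = 0.144 without HFD replicate 2). All 15 fibre markers differed upwards too (median 0.18), so the sign is not particular to this list.

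Growth and nutrient signalling changed in a few members. In the IGF, myostatin and BMP list of 39 tested genes 2 rose and 3 fell (12.8% called against 6.06% of all genes). Acvr1b (ALK4), a type I receptor for activin and myostatin, read 10.40, 10.57 and 10.32 on ND and 8.62, 9.27 and 9.47 on HFD, a 2.47-fold fall (adjusted p = 0.00546), and this was the stable call. Fst, the follistatin that binds the same ligands, fell by 0.89 (adjusted p = 0.0699 without ND replicate 3), Igfbp3 fell by 1.38 (adjusted p = 0.0834 without ND replicate 2), and Igfbp5 and Chrdl2 rose by 1.29 and 1.02 (kept in 2 and 0 of the fits, adjusted p = 0.156 without ND replicate 2, and 0.158 without ND replicate 3); the Igfbp5 groups overlapped. In the Akt, mTORC1 and AMPK list of 33 tested genes 3 rose and 1 fell (12.1% called against 6.06% of all genes). Rragd, a Rag GTPase that carries amino acid signals to mTORC1, read 10.77, 10.57 and 10.53 on ND and 11.21, 11.28 and 11.27 on HFD, 1.55-fold higher (adjusted p = 0.00478), while another probe set differed by 0.12. Mtor and the AMPK subunit Prkag3 rose by 0.46 and 0.58 and Pik3cb fell by 0.90 (adjusted p = 0.11 without ND replicate 2, 0.0922 without ND replicate 2, and 0.197 without ND replicate 2).

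Vascular genes were led by Aplnr. Of 38 tested 5 rose and 2 fell (18.4% called against 6.06% of all genes; 2 without ND replicate 2 and 2 with the 3' to 5' covariate). Kdr (VEGFR2), the main receptor for VEGF on endothelium, read 5.78, 6.09 and 5.41 on ND and 6.67, 7.32 and 7.01 on HFD and Aqp7, the glycerol channel of capillaries and fat, 5.42, 5.80 and 4.61 on ND and 6.77, 6.67 and 6.18 on HFD. They rose 2.37-fold and 2.4-fold, kept in 2 and 3 of the fits (adjusted p = 0.116 without ND replicate 3, and 0.0739 without ND replicate 3). Angpt1 and Sox18 rose by 1.15 and 1.35 (adjusted p = 0.0714 without ND replicate 2, and 0.109 without HFD replicate 2), and Fgf1 and Fgfr1 fell by 1.38 and 0.68 (adjusted p = 0.126 without ND replicate 3, and 0.1 without ND replicate 2). Beside this list, 12 endothelial markers, Kdr among them, had 1 call and summed linear signals of 1600 to 2214 on ND and 1787 to 2198 on HFD, which overlap.

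Several stress-responsive transcription factors fell. Cebpd read 11.29, 12.03 and 11.61 on ND and 9.03, 7.91 and 9.85 on HFD, a 6.55-fold fall (adjusted p = 0.00475), though a second probe set of it differed by -0.07. Cebpb, its family member, read 11.57, 11.89 and 11.65 on ND and 10.53, 10.73 and 10.64 on HFD, with narrow groups (2.11-fold lower, adjusted p = 8.3e-05). Maff, a small Maf protein, went from 7.75, 8.80 and 7.98 on ND to 5.64, 6.13 and 5.36 on HFD (5.54-fold lower, adjusted p = 0.000598). In the list of 42 nuclear receptors and metabolic factors, 5 fell and 3 rose (19% called against 6.06% of all genes). Klf15, a glucocorticoid-induced factor of amino acid use, and its relatives Klf9 and Klf5 fell by 1.27, 0.60 and 1.26, kept in 5, 4 and 1 of the fits. The lipogenic factors Srebf1 and Mlxipl (ChREBP) and the coactivator Ppargc1b rose by 0.76, 0.70 and 0.83, each kept in at most 2 of the fits (adjusted p = 0.0834 without ND replicate 2, 0.0827 without ND replicate 3, and 0.174 without ND replicate 2). Signalling around cAMP gave 4 calls of 26 (15.4% against 6.06% of all genes): Rgs2, which dampens G protein signals, fell by 1.58 (adjusted p = 0.0576 without ND replicate 2), Pde7a by 0.69 and Crtc3 by 0.55, and Creb1 rose by 0.60, each of these 3 in at most 2 of the fits.

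The clock genes Dbp and Per3 were higher. Dbp, a clock-driven activator that binds D-box elements, read 7.40, 7.72 and 7.58 on ND and 9.95, 9.67 and 8.75 on HFD, where replicate 3 was the lowest; it rose 3.71-fold (adjusted p = 0.0088) and was stable. Per3, a period gene with D-boxes in its promoter, read 6.02, 4.91 and 6.34 on ND and 7.25, 7.51 and 7.16 on HFD, 2.94-fold higher (adjusted p = 0.0162), kept in 4 of the fits (adjusted p = 0.0581 without HFD replicate 2). Both were also higher on HFD without GPR120, by 2.44 (adjusted p = 0.00324) and 1.72 (adjusted p = 0.0119). The time of day at which tissue was taken was not given in the sources used here.

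Promoters were read for 9197 of the tested genes from RefSeq (GRCm38.p6), each as a window of 300 bases, from 250 before to 50 after the annotated start. Counted on both strands, the cAMP response element TGACGTCA stood in 3.47% of all windows, in 2.17% of those of genes that rose and in 5.05% of those of genes that fell. For the E-box CACGTG these shares were 12%, 8.7% and 16.2%, for the FoxO element GTAAACA 3.15%, 2.9% and 5.78%, for the D-box TTANGTAA 1.86%, 2.17% and 1.44%, and for the ERR element TCAAGGTCA 0.359%, 0.362% and 0.361%. By their consensus names, the glucocorticoid response element stood in 0.109%, 0.362% and 1.44%, the CArG box in 1.63%, 0.725% and 2.53%, the heat shock element in 0.642%, 0.362% and 0.361%, and the PPAR element (DR1) in 0.261%, 0.362% and 0%. The last 6 bases of the ERR element are also a DR1 half-site, and the E-box and the cAMP element share the core ACGT. Among the 71 windows of stable falls the FoxO element stood in 2.82%, the cAMP element in 7.04% and the E-box in 16.9%. The rarer elements rest on few windows (4 of 277 genes that fell for the glucocorticoid element), and a match is a stretch of letters, not a measured binding site.

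The 4 sequences below show such matches in genes described here: the cAMP element of Btg2 and Maff (fallen), the D-boxes of Per3 (risen) and the glucocorticoid element of Mt1 (fallen). Each is the 250 bases before the start, 5' to 3' on the gene's strand, with capitals marking motif letters (Maff carries an E-box as well).
Btg2, chr1:134079156-134079405 (minus strand, GRCm38.p6): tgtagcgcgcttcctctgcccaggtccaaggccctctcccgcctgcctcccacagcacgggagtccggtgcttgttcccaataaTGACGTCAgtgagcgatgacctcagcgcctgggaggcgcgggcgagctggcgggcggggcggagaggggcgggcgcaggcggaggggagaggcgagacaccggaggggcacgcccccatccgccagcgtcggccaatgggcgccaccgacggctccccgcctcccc
Maff, chr15:79347270-79347519 (plus strand, GRCm38.p6): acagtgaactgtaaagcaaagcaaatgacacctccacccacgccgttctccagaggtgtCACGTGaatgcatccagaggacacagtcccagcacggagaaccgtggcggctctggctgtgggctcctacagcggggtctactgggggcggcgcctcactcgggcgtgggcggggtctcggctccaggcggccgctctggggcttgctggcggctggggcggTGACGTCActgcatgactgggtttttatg
Per3, chr4:151044666-151044915 (minus strand, GRCm38.p6): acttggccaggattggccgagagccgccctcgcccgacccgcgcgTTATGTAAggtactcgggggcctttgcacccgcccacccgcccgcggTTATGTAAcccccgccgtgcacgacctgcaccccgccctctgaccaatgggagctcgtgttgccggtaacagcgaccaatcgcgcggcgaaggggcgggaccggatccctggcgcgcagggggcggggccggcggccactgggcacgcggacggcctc
Mt1, chr8:94178839-94179088 (plus strand, GRCm38.p6): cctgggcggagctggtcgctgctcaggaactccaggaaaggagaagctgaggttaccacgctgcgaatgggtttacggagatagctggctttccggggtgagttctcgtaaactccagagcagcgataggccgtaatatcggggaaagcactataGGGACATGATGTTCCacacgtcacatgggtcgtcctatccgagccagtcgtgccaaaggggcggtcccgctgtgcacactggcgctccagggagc
The element begins 166 bases before the start in Btg2 and 29 bases before it in Maff; the D-boxes of Per3 stand 205 and 158 bases before it, and the glucocorticoid element of Mt1 95 bases. Other called genes with a cAMP element in the same stretch, among those looked up, were Gas5, Lrrc8a, Zfand2a and Pdlim3.

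Collagens gave no calls, and some matrix remodelling genes fell. None of 18 collagens was called by limma (0 at an unadjusted p under 0.05), none in any leave-one-out fit, and none separated the diets without overlap, against 26.7% of all genes; Col12a1 and Col16a1 had the largest differences, -0.57 and -0.56 (adjusted p = 0.556 and 0.718). In mice without GPR120 6 of the 18 rose on HFD, at a background of 4.54% of all genes called in that contrast. However, no collagen is among the genes whose diet effect was called as different between the genotypes. Of 34 proteases, inhibitors, crosslinkers and matricellular genes 5 fell and 1 rose (17.6% called against 6.06% of all genes), none of them stable and none called without ND replicate 2. Lox, the collagen crosslinker, read 7.38, 8.69 and 8.44 on ND and 6.000, 7.19 and 6.59 on HFD and fell 2.99-fold (kept in 3, adjusted p = 0.0868 without ND replicate 2). Ccn2 (CTGF) and Ccn1 (CYR61), matricellular targets of YAP, fell by 2.07 and 1.47 (adjusted p = 0.0881 without ND replicate 3, and 0.0735 without ND replicate 3), Tgm2, the tissue transglutaminase, by 1.03 (kept in 5, adjusted p = 0.0572 without ND replicate 2), and Mmp10, a stromelysin, was called lower with all HFD arrays under the filter on low signals (adjusted p = 0.164 without ND replicate 2); Timp4 rose by 0.62 (adjusted p = 0.138 without ND replicate 3).

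Signals of other cell types gave few calls. None of 13 macrophage, 11 fibroblast, 8 adipocyte, 11 smooth muscle, 6 tendon, 4 mast cell or 5 lymphocyte and granulocyte markers was called, and none of 3 heart, 5 epidermal or 2 erythroid ones (limma; 12 of these 68 markers had an unadjusted p under 0.05). Their summed signals overlapped between diets for macrophage (4279 to 4822 on ND, 2652 to 5410 on HFD) and adipocyte markers (21065 to 22879, and 22496 to 29852). For the 5 lymphocyte and granulocyte markers the ranges did not meet, 1106 to 1395 on ND and 685 to 1059 on HFD, although no single marker was called. Yet 4 of these 5 markers differed upwards (median 0.11), so the lower sum is not a fall shared by most of them. For the epidermal markers the ranges of the sums did not meet either, 108 to 143 and 149 to 215. The brown fat list rose in 2 of 3, Cidea and Cox8b (by 0.29, kept in 2 of the fits), while Ucp1, its defining gene, did not pass the filter on low signals. Its sums were 6096 to 6521 on ND and 7318 to 7998 on HFD. Cox8b, with a mean log2 signal of 12.74 over the 12 arrays against 5.82 for Cidea, made up nearly all of them. The sums therefore repeat the Cox8b difference and are no separate reading of brown fat. Of 9 Schwann cell markers 1 was called, Cryab, which muscle fibres express too. The sums did not meet, 11957 to 15097 on ND and 9810 to 10609 on HFD. Cryab read 13.39, 13.62 and 13.78 on ND and 13.14, 13.21 and 13.10 on HFD and made up most of these sums. The Schwann sums therefore mainly repeat the Cryab difference. Among the satellite cell markers Pax7 was called higher, with 3.32, 1.38 and 3.35 on ND, all under the filter on low signals, and 5.08, 4.35 and 4.68 on HFD (adjusted p = 0.0879 without HFD replicate 1), and the other 5 were not called. The part of these cell types in the results was not tested.

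Calls in the remaining lists were few, with shares from 2.56% (Rab and vesicle genes) to 14.3% (satellite cell and myogenic factors) against 6.06% of all genes. Satellite cell and myogenic factors had 3 rises (Pax7, Six4 by 0.65, and Cxcl12 by 0.58 with overlapping groups) and 1 fall (Sdc4 by 0.93), each kept in at most 3 of the fits, among 28. The cytoskeleton list held 2 stable calls among 38: Dynll1, a dynein light chain, read 9.63, 9.70 and 9.87 on ND and 10.49, 10.44 and 10.40 on HFD (1.64-fold higher, adjusted p = 0.00111), and Tubb4b fell by 0.57 (adjusted p = 0.00785), though its other probe sets differed by 1.35 and -0.60; Pfn2 rose by 0.40 (adjusted p = 0.0864 without ND replicate 2). RNA-binding and splicing genes gave 1 rise, the architectural RNA Neat1 (by 0.73, stable, though another probe set differed by -0.60), and 1 fall, Hnrnpa1 (by 0.71, adjusted p = 0.0946 without ND replicate 2), among 39. Of the MAP kinase list of 35 Rasd2 rose by 1.09 (kept in 5, adjusted p = 0.0541 without ND replicate 2) and the muscle phosphatase Dusp13 fell by 0.60 (kept in 4, adjusted p = 0.0592 without ND replicate 2). Sphingolipid genes gave 2 falls among 34, the ceramidase Acer2 by 1.22 (kept in 5, adjusted p = 0.055 without ND replicate 3) and Sgpp1 by 0.84 (adjusted p = 0.149 without ND replicate 3). Wnt5a rose by 1.35 (kept in 5, adjusted p = 0.0533 without ND replicate 3) and Fst fell among 22 secreted factors; Rarb rose by 1.31 (adjusted p = 0.0714 without HFD replicate 1) among 14 thyroid hormone and retinoid genes. In the cell cycle list of 24 Ccnd2 rose by 0.58 and Rrm2 fell by 1.48 (adjusted p = 0.11 without HFD replicate 2, and 0.0915 without ND replicate 3). Mcm6 was called higher too, with 3.002, 1.76 and 3.36 on ND, all under the filter on low signals, and 5.52, 4.39 and 4.34 on HFD (adjusted p = 0.0846 without ND replicate 2). Rab20 was the 1 call of 39 Rab and vesicle genes, lower by 1.47 (adjusted p = 0.128 without ND replicate 2).

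Further single genes were stable without belonging to a list, and those in this paragraph were chosen after their values were seen, unless a rule based on size of change or p named them (Dach2, Plbd1, 6430571L13Rik, Tmem140 and Slc19a2). The naming rule takes up to 4 called members of a list per direction; all other called list members given above were added so that every call of a list is named. Slc39a14 (ZIP14), a zinc and iron importer, read 7.30, 9.45 and 9.20 on ND and 6.63, 5.90 and 6.24 on HFD, 5.25-fold lower (adjusted p = 0.00752), but another probe set differed by -0.13. Il6ra, the interleukin-6 receptor, read 7.44, 8.78 and 7.79 on ND and 5.23, 6.04 and 6.60 on HFD, 4.13-fold lower (adjusted p = 0.00549), against -0.36 on another probe set. On the probe sets used both separated the diets fully. Tnfrsf12a (Fn14), the TWEAK receptor of denervated muscle, fell by 1.56 (adjusted p = 0.0107), and Zfp36 (tristetraprolin), which destabilises cytokine mRNAs, by 1.61 (adjusted p = 0.00478). Slc43a1 (LAT3), a transporter of large neutral amino acids, fell by 2.16 and the thiamine transporter Slc19a2 by 1.10. Fkbp5 and Tsc22d3 (GILZ), textbook glucocorticoid targets, fell by 1.28 and 1.10 (adjusted p = 0.00314 and 0.00128), Spsb1, a SOCS-box ligase adaptor, by 1.92, the amino acid stress factor Atf4 by 0.66 and Tmem140, of unclear function, by 1.63. On the rising side Trib2, a pseudokinase, read 6.58, 6.04 and 6.69 on ND and 8.08, 8.13 and 7.39 on HFD (2.71-fold, adjusted p = 0.00163). Dach2, a corepressor on the myogenin pathway of innervation, read 6.25, 5.47 and 5.83 on ND and 7.13, 7.66 and 7.56 on HFD (3.03-fold, adjusted p = 0.0031); here too no arrays overlapped. Plbd1, a lysosomal phospholipase-like protein, rose by 1.45, the uncharacterised 6430571L13Rik by 2.18, Aldh5a1, which oxidises succinate semialdehyde, by 1.09, the integrin Itga4 by 1.07, Smtnl1, a smoothelin-like regulator of contraction, by 0.99, and Hjv (hemojuvelin), the BMP co-receptor of iron sensing, by 0.58.

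Some of the largest changes by size were at low signals and lost their call in some leave-one-out fits. Among those called lower were Plet1 (-4.05), Sox9 (-3.70), Lcn2 (-3.57), Apoc3 (all HFD arrays under the filter on low signals) and Angptl7 (-3.10), and in each the ND arrays spread over 1 log2 unit or more. Their calls were kept in 2, 2, 3, 4 and 2 of the fits, all least favourable without ND replicate 2 (adjusted p = 0.121, 0.0943, 0.0642, 0.0687 and 0.111). Among those called higher, Mfng (2.46), H2-T18, Dact2, Sqle and Cxcl11 were kept in 1, 3, 2, 0 and 0 (adjusted p up to 0.141, 0.0673, 0.113, 0.128 and 0.0981); all ND arrays of the last 4 lay under the filter on low signals.

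Other probe sets disagreed for several more of the called genes described above. The sign was opposite for Mtor (-0.56), Creb1 (-0.32), Hnrnpa1 (0.54), Ccnd2 (-0.16) and Ulk2 (-0.24 and -0.03), so their direction depends on the probe set. The difference had the same sign but was much smaller for Cd36 (0.11), Klf5 (-0.10), Nmnat1 (0.02), Mcm6 (0.22), Psmd7 (-0.06), Psmd11 (-0.12), Ube4b (-0.15), Rrm2b (0.15 and 0.09), Ccn1 (-0.49) and Spsb1 (-0.52), and 0.01 for Auh, which was not called.

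The same contrast in mice without GPR120 called 515 genes (4.54%), and 162 genes were called in the same direction in both genotypes. The difference between the diet effects was itself called for 16 genes (0.141%). Of these 16 genes 8 were also called on diet in wild type. For Tmem87a the KO arrays read 4.88, 5.13 and 5.28 on ND and 5.12, 5.14 and 5.61 on HFD, near the wild-type HFD level, so that wild-type ND stood apart from the other groups. The same layout held for Capn3, with KO signals of 10.19, 10.16 and 10.15 on ND and 10.27, 10.49 and 10.22 on HFD against 9.37, 9.28 and 9.37 in wild type on ND. Hspb7 differed in layout: KO arrays read 12.999, 12.85 and 12.91 on ND and 13.11, 12.37 and 12.50 on HFD, near the wild-type ND level, so wild-type HFD stood apart. These 3 interactions (-2.92, 0.97 and -2.73, wild type minus KO; adjusted p = 0.000836, 0.00912 and 0.00972) were called in all 6 fits that left out a wild-type array. Of the 16 genes 3 lie on mouse chromosome 2 close to each other in RefSeq gene order: 1 other tested gene lies between Tmem87a and Capn3, and 8 between Oip5os1 and Tmem87a. Which parental strain these mice carry at that stretch was not given in the sources used here, and its part in these 3 diet differences was not tested.

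**Figure D5:**
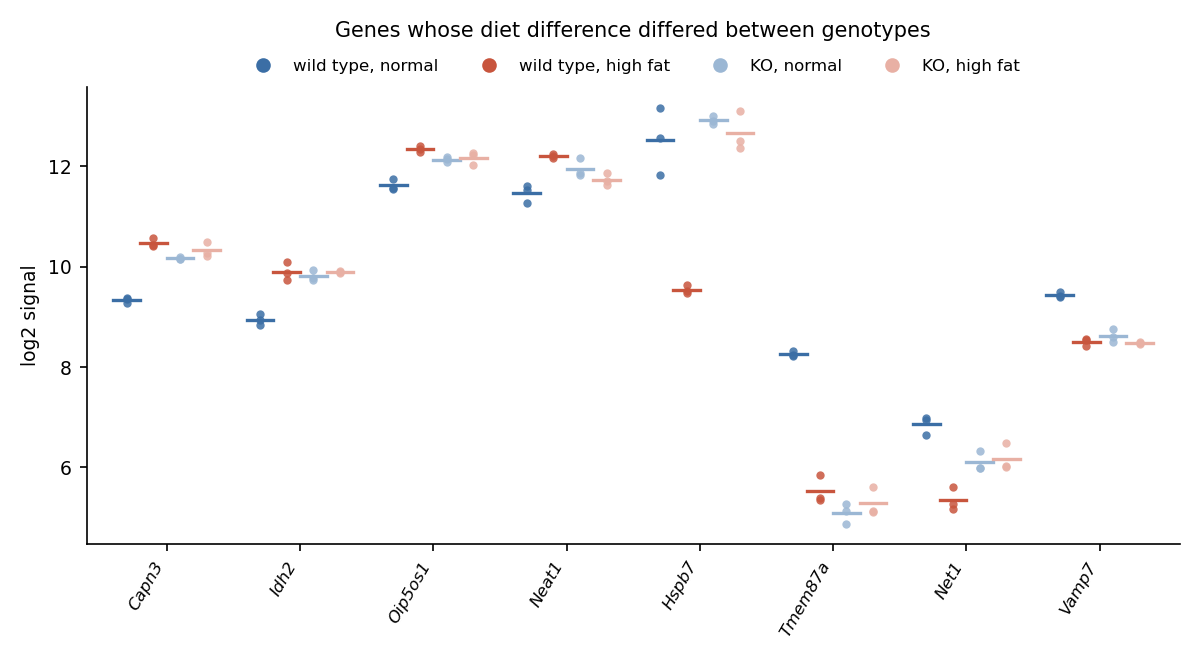
Log2 signal in all 12 arrays of the 8 genes that were called on diet in wild type and for the difference between genotypes; points are arrays and bars group means (n = 3). Wild-type ND stands apart from the other 3 groups in Capn3, Idh2, Oip5os1, Tmem87a and Vamp7, wild-type HFD does in Hspb7, and in Neat1 and Net1 the KO means lie between the wild-type ones.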

How the data were processed

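Skeletal muscle RNA of 12 mice was hybridised to Affymetrix mouse arrays, 1 array per mouse, and groups were taken from the labels. The authors deposited log2 signals made with MAS5, per the submitters' processing notes, which name no version; the 2% to 98% trimmed mean of the linear signal is the same, 100.0, on every array. Here 64 control probe sets were set aside, and of 45037 probe sets 34945 had 1 gene symbol, 932 several and 9160 none. Probe sets with a mean log2 signal above 3.78 (the median) were kept and the brightest one stood for its gene, which gave 11345 genes.

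One limma 3.58.1 model (R 4.3.3) with 4 group means, an intensity trend and empirical Bayes (8 residual and 5.42 prior degrees of freedom) was fitted to 12 arrays, and p-values were adjusted by Benjamini-Hochberg over all genes. The script was tested on simulated data. Replicates are separate mice with no pairing, and only their number limits the precision. Genes named are, per direction, the 20 largest called differences without overlap, the 10 smallest p-values, the 10 largest among the brightest 10%, and up to 4 called genes per list (the 2 largest differences where none was called). Genes, lists and this rule were chosen with earlier results of these data known. Alternatives covered the offset, filter, normalization, probe set choice, variance model, 3' to 5' ratio and left-out arrays. Gene positions are printed only with sequences, since the files name no build.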

Additional observations from a re-analysis of the deposited data

Results flagged for a closer look

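In 8 genes named in the report the diet effect of wild-type mice differed from that of mice without GPR120 by the test of the difference itself (limma, n = 3 arrays in each of the 4 groups, Benjamini-Hochberg over all tested genes). Values are the wild-type minus the KO diet effect on the log2 scale. The difference was -2.92 for Tmem87a, -2.73 for Hspb7 and 0.97 for Capn3, and each of these was called in all 6 fits that left out 1 wild-type array, with highest adjusted p-values of 0.00782, 0.0453 and 0.0453. Idh2 differed by 0.88 and Oip5os1 by 0.70; both were called in 2 of the 6 fits, with an adjusted p of 0.119 without ND replicate 2. Neat1 differed by 0.95 and was called in 3 of the 6 fits (0.114 without ND replicate 2). Net1 differed by -1.59 and was called in 1 (0.120 without ND replicate 2); it lies outside the naming rule and was picked after its values were seen. Vamp7 differed by -0.79 and was called in none of the 6 fits (adjusted p from 0.0502 to 0.119).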

How the results depend on the processing

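Counts of called genes depended on the variance model and on single arrays, while directions rarely did. Against 687 called genes, 348 higher and 339 lower, the fit without an intensity trend called 311 (149 higher, 162 lower), that with the mean 3' to 5' ratio as a covariate 186 (92 and 94), and that on the 6 wild-type arrays alone 383 (160 and 223). Taking every probe set gave 545 lower. Leaving out 1 wild-type array gave 199 to 918 called, 101 to 500 higher and 98 to 418 lower; the share of calls that were higher, 50.7%, was 38.9% without HFD replicate 2 and 58.7% with median centring. The difference between genotypes, called for 16 genes, was called for 10 after quantile normalization, 10 with the mean of probe sets, 6 over every probe set and 1 without the trend, and for 4 to 31 when an array was left out. The cause was not tested. Of 278 called genes among those named, listed or stable, 275 kept their direction in every one of the 19 alternatives that gave them a value; 38 had none under the stricter filter on low signals. The exceptions, all with the mean of a gene's probe sets, were Got2 (-0.13), Prdx2 (-0.49) and Tubb4b (0.061). No paired analysis was possible because the replicate numbers were given in accession order and pair no samples. With 3 arrays per diet the precision is limited, and diet cannot be told apart from cohort, litter or RNA quality.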
